A study of Mus musculus with 28 samples.

Results

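Marrow stromal cells are the *Cxcl12*-rich, *Lepr*-expressing reticular cells of the bone marrow, here taken from a pair of scRNA-seq libraries of 16-week-old mice. A cell was counted as a member if it had at least 200 detected genes and if the unique molecular identifiers (UMIs, 1 per captured transcript) of *Adipoq*, *Cxcl12*, *Lepr*, *Lpl*, *Hp*, *Kng1* and *Esm1* together made up at least 1% of its UMIs. By this rule 3875 of the 4430 cells of both libraries were members, of 6205 cells in the 4 scRNA-seq libraries of the series. The control library came from *Prx1*-Cre; *Z24* fl/+ mice, which carry 1 floxed allele of *Zmpste24* (*Z24*), and the CKO library from *Prx1*-Cre; *Z24* fl/fl mice. Both carried the Ai9 reporter, and Ai9+ cells without CD45, Ter119 and CD31 were sorted from digested bone and marrow. *Prx1*-Cre recombines in the limb mesenchyme, so the sorted cells descend from it. Members of 2 further libraries, from *Prx1*-Cre and *Osx*-Cre mice at 8 weeks, are given as levels beside the comparison. The labels name *Z24* fl/fl for these 8-week libraries, whereas the study's text names only the Cre lines and the reporter.

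Marrow stromal cells surround the sinusoids and secrete CXCL12 and stem cell factor (*Kitl*), on which blood stem cells depend. They also feed the bone and marrow fat lineages, and express genes of both at a low level before differentiation. *Zmpste24* encodes a metalloprotease of the nuclear envelope and endoplasmic reticulum that matures prelamin A, and mice without it age prematurely. Immediate early genes such as *Fos*, *Jun* and *Egr1* encode short-lived transcription factors and regulators that are transcribed within minutes of a stimulus, and enzymatic digestion of tissue is a known stimulus.

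In the control library 1753 of 2068 cells were members (84.8%; 95% confidence interval by the exact Clopper-Pearson method, 83.1% to 86.3%). In the CKO library 2122 of 2362 cells were (89.8%; 88.5% to 91.0%). The shares at 8 weeks were 57.4% in the *Prx1*-Cre and 71.4% in the *Osx*-Cre library. With 1 library per genotype, pooled from several mice and with no assignment of cells to mice, no difference has a replicate check and no p-value is given. Genotype, mice and library cannot be told apart, and every interval covers counting error only. Files and labels give 2068 cells to the control, while the study's methods attach that number to the fl/fl genotype. The names here follow the labels. The study reports lower percentages of chondrocyte-like and periosteal cells in fl/fl mice. Here cells with at least 2% of UMIs from chondrocyte markers numbered 60 in control and 14 in CKO. In the cells failing the rule, periosteal markers held 3421 of 831126 UMIs in control and 750 of 411450 in CKO. *Prg4* alone held 2057 of these UMIs in control and 134 in CKO. *Ly6a* had 350 and 187 CPM there, and *Mfap5* 164 and 153 CPM. Both measures were lower in the library labeled CKO, the periosteal sum largely through *Prg4*. That sum is a share of UMIs and not a percentage of cells. Whether the labels are correct was not tested.

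Few members lay near the threshold. The lowest marker share among members was 1.04% in the control and 1.01% in the CKO library, and the highest among the other cells was 0.983% and 0.979%. Between 0.9% and 1% lay 2 control and 6 CKO cells, and between 1% and 1.1% lay 2 and 4 cells. The median marker share was 4.50% in control and 4.34% in CKO members. The members were chosen by the measured levels of these 7 genes, which are given as a description only. *Cxcl12*, the chemokine that retains blood stem cells, had 25854 CPM in control, where CPM are UMIs scaled to 1000000 per library, and 25578 CPM in CKO. *Adipoq* (adiponectin) had 2297 and 2124 CPM, *Lepr* (the leptin receptor) 766 and 806 CPM, and *Lpl* (lipoprotein lipase) 2029 and 2186 CPM. *Hp* (haptoglobin) had 13439 and 12496 CPM, *Kng1* (kininogen) 766 and 633 CPM, and *Esm1* (endocan) 1236 and 997 CPM.

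Defining markers of most other cell types were scarce in the members. The summed level of 11 lymphoid markers was 2.52 CPM in control and 3.88 CPM in CKO, with 6 of the 11 at 0 in each. Endothelial markers summed to 47.1 and 45.0 CPM, periosteal markers to 63.4 and 37.8 CPM (led by *Prg4*) and chondrocyte markers to 107 and 195 CPM (led by *Comp*). The chondrocyte sum rested on few cells, as the top 1% of CKO members held 74.2% of the *Comp* UMIs, and its ratio of 1.82 turned to 0.694 at a marker share of 0.5% and to 0.849 in cells under 5% mitochondrial UMIs. Megakaryocyte markers summed to 22.0 and 10.0 CPM and myeloid markers to 354 and 338 CPM, led by *Fcer1g*. Pericyte markers summed to 485 and 532 CPM, led by *Myl9*. Osteoblast markers had the highest sum, 8517 and 7906 CPM, of which *Ibsp* (bone sialoprotein) made up 97.6%, and 3 control and 2 CKO members reached 5% of UMIs from this list. Of the Y-linked genes, *Ddx3y* had 65.2 CPM in control and 71.2 CPM in CKO. Erythroid markers differed most between the genotypes, with 3151 CPM in control and 614 CPM in CKO, and they are described with the genes that were lower.

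CKO members were somewhat shallower. They held 3091574 UMIs in all with a median of 1272 per cell, compared with 2778320 UMIs and a median of 1391 in control. The median number of detected genes was 731 in CKO and 805 in control. After thinning each cell to 1000 UMIs, which left 1317 CKO and 1219 control cells and left out 805 and 534 shallower ones, the medians were 613 and 622 genes. The median mitochondrial share was 2.90% and 2.72%. The libraries shared 10 cell barcodes, of which 8 belonged to members in both.

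*Zmpste24* itself was read by few UMIs. The control members held 56 UMIs (20.2 CPM) and the CKO members 11 UMIs (3.56 CPM), a CKO-to-control ratio of 0.177 (0.0834 to 0.341). The 8-week members had 20.1 CPM (*Prx1*-Cre) and 38.9 CPM (*Osx*-Cre). The gene has 10 exons on mouse chromosome 4 and the study floxed exon 6, whereas 3′ libraries read the transcript's end. The count is thus outside the deleted part and does not read the deletion directly. In the cells failing the rule the gene had 14 UMIs in control and 0 in CKO. Why the count was lower in CKO was not tested.

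Most genes had nearly the same level in both genotypes. Of 31053 genes listed, 2940 had a mean of at least 50 CPM over both libraries, and 81.4% of them lay within 1.2-fold. A gene was called if its CPM differed by at least 1.5-fold, which held for 39 genes higher in CKO (1.33% of those compared) and 31 lower (1.05%). The interval of every one of these ratios left out 1. The median log2 ratio over all compared genes was -0.03, and 55.4% of them had a ratio below 1. A gene can reach a mean of 50 CPM through the library where it is high, and such a gene had to differ. This held for 9 of the 39 genes higher, which were under 50 CPM in control, and for 12 of the 31 lower, which were under it in CKO.

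**Figure D1:**
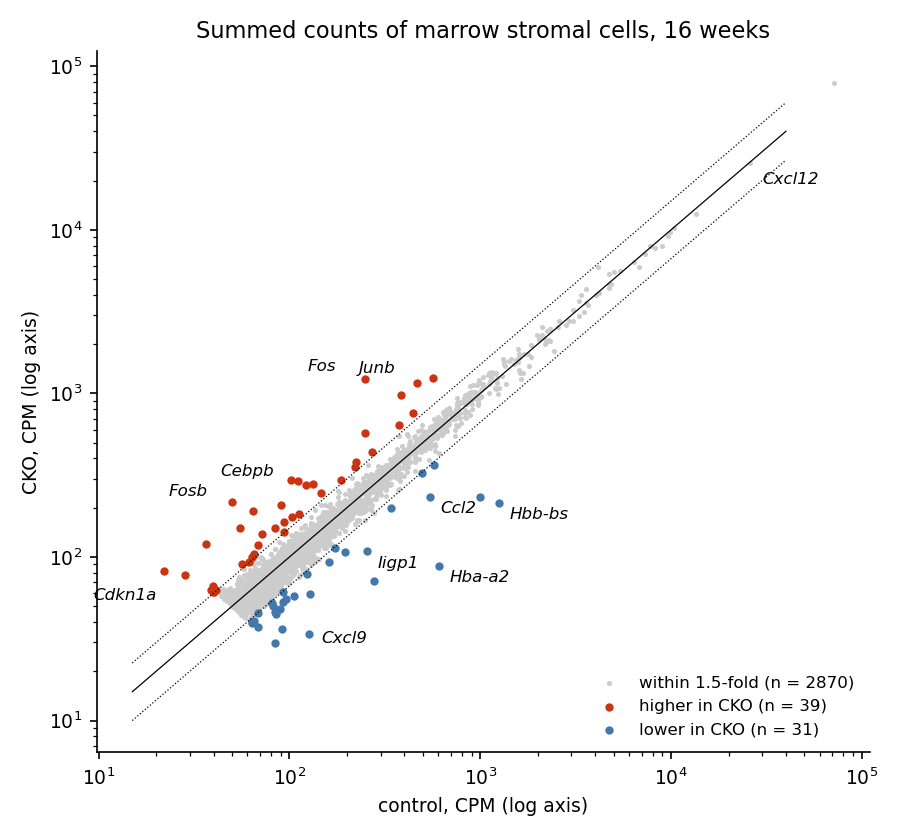
Each point is 1 of 2940 genes, at its level in control (x axis) and CKO (y axis) members in CPM on log axes, with the line of equality and dotted lines at 1.5-fold. The 39 genes higher in CKO include *Fos*, *Fosb*, *Junb*, *Cebpb* and *Cdkn1a*, and the 31 lower include hemoglobins, *Ccl2*, *Iigp1* and *Cxcl9*.

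Immediate early genes were the largest group among the genes higher in CKO. Of 32 immediate early genes listed, 19 passed the filter of 50 CPM, 15 were called higher and none lower, beside 1.33% of all compared genes called higher. Of the 15, *Fosb* alone was under 50 CPM in control. The ratio was above 1 in all 19 and their median log2 ratio was 1.14, beside -0.03 over all compared genes. Of the 13 under the filter, 11 had a ratio above 1. Together the 32 genes made up 4355 CPM in control and 9276 CPM in CKO, a ratio of 2.13 (2.09 to 2.18). At 8 weeks they stood at 12499 CPM (*Prx1*-Cre) and 11867 CPM (*Osx*-Cre), above both 16-week libraries.

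*Fos*, a subunit of the AP-1 transcription factor, had 695 UMIs (250 CPM) in control and 3763 UMIs (1217 CPM) in CKO, 4.87 times as much (4.49 to 5.28). Its 8-week levels were 1901 and 1757 CPM. *Fosb*, its close relative, had 49.7 CPM in control and 217 CPM in CKO, 4.38 times as much (3.64 to 5.29). The partners of *Fos* in AP-1 followed with smaller ratios. *Jun* had 382 and 971 CPM (2.54; 2.37 to 2.73), *Junb* 468 and 1156 CPM (2.47; 2.32 to 2.63) and *Jund*, the most abundant of the list, 565 and 1243 CPM, with an interval of 2.07 to 2.33. In all 5 genes the order of the libraries was control, CKO and then both 8-week libraries.

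Other members, negative regulators of signaling among them, were also higher. *Zfp36*, which degrades AU-rich mRNAs, had 64.1 CPM in control and 190 CPM in CKO (2.97; 2.51 to 3.54), and *Btg2*, an antiproliferative gene, had 54.7 and 150 CPM (2.75; 2.28 to 3.32). *Ier2* had 110 and 293 CPM (2.65; 2.33 to 3.03). *Dusp1*, a phosphatase of MAP kinases, *Egr1* and *Klf2*, zinc finger transcription factors, were 2.25, 2.29 and 2.09 times as high in CKO. *Rhob*, *Cyr61*, *Gadd45g* and *Klf6* were 1.59 to 1.73 times as high. *Gadd45b* had the lowest ratio of the compared genes, 1.10 (0.884 to 1.36).

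**Figure D2:**
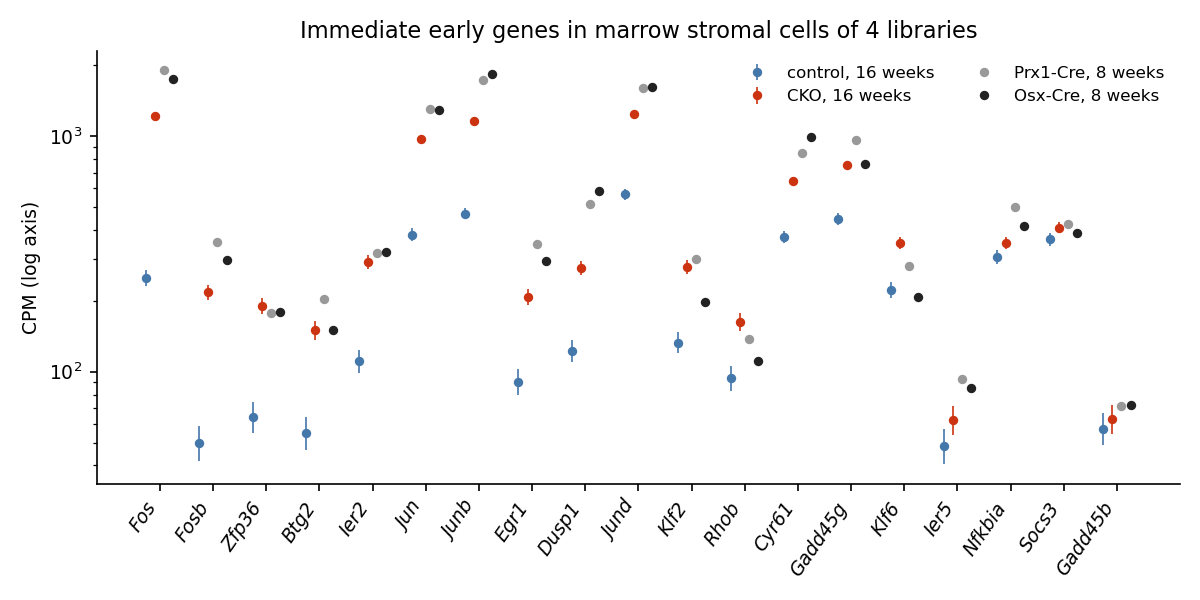
Levels of the 19 compared immediate early genes in the members of 4 libraries, in CPM on a log axis, ordered by the CKO-to-control ratio. Bars are exact 95% Poisson intervals of the 16-week libraries; control is the lowest point for *Fos* (250 CPM) and most others, and the 8-week libraries lie at or above CKO for *Fos*, *Fosb*, *Jun*, *Junb* and *Jund*.

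Since these genes were higher together, the letters of their promoters are shown. RefSeq windows (GRCm38.p6) of 300 bases, 250 before and 50 after the start, were at hand for 12 of the 15 called genes, and not for *Egr1*, *Ier2* and *Cyr61*. On both strands, the 5 motifs searched first were found as follows. The CArG box, the letters bound by serum response factor, was in 1 of the 12 (*Zfp36*), compared with 1.81% of 26994 genes. TGACGTCA, the full cyclic AMP response element, was in 2 (*Btg2* and *Dusp1*), compared with 2.03%. CACGTG was in 3 (8.09% of all genes), TTCNNNGAA in 1 (9.55%), and 2 copies of TTTC spaced by 2 bases in none (3.98%). The half-site TGACG, which lies inside TGACGTCA, was added after these counts and the sequences had been seen. It was in 6 of the 12, compared with 6213 of the 26994 genes, and in 6 of 18 windows of the other genes called higher and 3 of 21 of the genes called lower. Motifs chosen after reading the sequences they are counted in tend to be found there, so the count of TGACG is a description of these windows. The 6 motifs were counted in 5 sets of genes, so 30 counts were made. Of the others, CACGTG, the E-box bound by clock factors, was in 5 of 15 clock gene windows but in neither *Dbp* nor *Per3*, and TTCNNNGAA, bound by STAT factors, was in 4 of 10 windows of interferon genes but not in *Cxcl9*. No binding was measured. The 250 bases before the start follow for 5 of the 6 genes, 5′ to 3′ on the gene's strand, with TGACG (or its complement CGTCA) in capitals.
Fos (chr12:85473640-85473889, plus strand): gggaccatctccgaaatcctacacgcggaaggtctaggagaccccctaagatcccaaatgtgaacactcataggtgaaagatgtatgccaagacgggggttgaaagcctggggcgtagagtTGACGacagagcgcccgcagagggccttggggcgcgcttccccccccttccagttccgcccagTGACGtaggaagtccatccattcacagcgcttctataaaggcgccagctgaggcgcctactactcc
Fosb (chr7:19310046-19310295, minus strand): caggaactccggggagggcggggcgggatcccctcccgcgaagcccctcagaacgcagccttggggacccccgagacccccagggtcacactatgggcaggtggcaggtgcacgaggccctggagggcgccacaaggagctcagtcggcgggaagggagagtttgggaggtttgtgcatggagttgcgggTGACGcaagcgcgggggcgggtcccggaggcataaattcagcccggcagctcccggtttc
Junb (chr8:84978749-84978998, minus strand): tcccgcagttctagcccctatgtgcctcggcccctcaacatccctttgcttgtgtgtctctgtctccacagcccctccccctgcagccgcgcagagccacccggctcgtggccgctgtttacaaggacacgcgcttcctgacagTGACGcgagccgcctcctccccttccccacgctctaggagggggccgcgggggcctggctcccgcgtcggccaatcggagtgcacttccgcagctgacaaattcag
Dusp1 (chr17:26508473-26508722, minus strand): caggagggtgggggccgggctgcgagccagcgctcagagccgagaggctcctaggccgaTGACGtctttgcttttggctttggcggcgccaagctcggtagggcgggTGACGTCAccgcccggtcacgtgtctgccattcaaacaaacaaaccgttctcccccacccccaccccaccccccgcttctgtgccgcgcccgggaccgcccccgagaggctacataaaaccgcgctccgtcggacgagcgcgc
Btg2 (chr1:134079156-134079405, minus strand): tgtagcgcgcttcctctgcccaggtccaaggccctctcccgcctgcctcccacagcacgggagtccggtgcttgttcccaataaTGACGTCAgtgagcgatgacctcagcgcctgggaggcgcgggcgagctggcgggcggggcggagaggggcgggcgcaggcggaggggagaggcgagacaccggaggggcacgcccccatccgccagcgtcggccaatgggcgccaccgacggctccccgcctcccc

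The difference was spread over many cells. The median immediate early share of a cell's UMIs was 0.250% in control and 0.437% in CKO, and 0.824% and 0.750% at 8 weeks. A share of 1% or more was seen in 9.07% of control (159 cells), 25.8% of CKO (547 cells) and 43.2% and 41.4% of the 8-week members. Cells without any immediate early UMI made up 11.2% of control and 10.2% of CKO members. At the 25th percentile of cells the share was 0.127% in control and 0.198% in CKO, and at the 75th percentile 0.439% and 1.03%. The share was thus higher in CKO in the lower, middle and upper range of cells, while the percentages of cells at 0 were close.

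**Figure D3:**
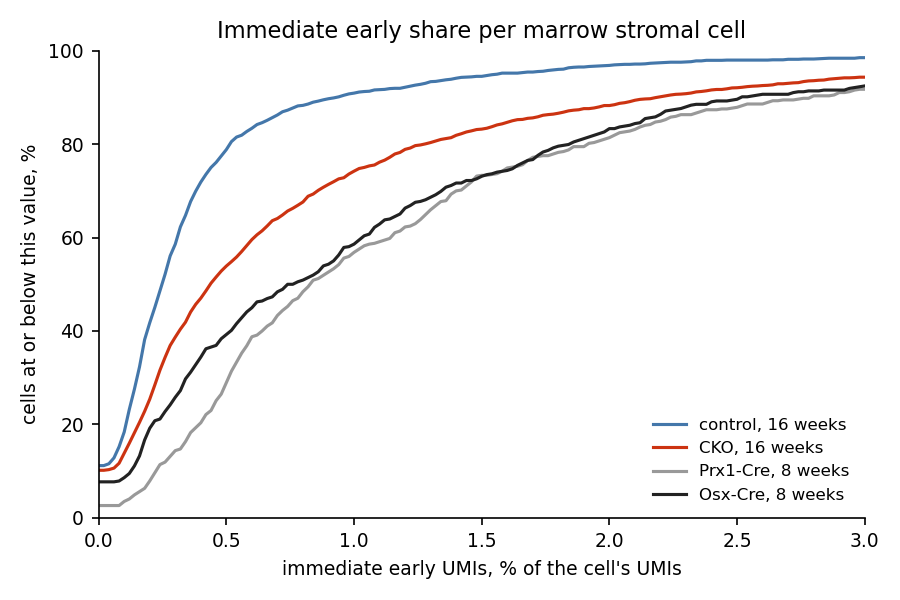
Cumulative percentage of members (y axis) against the share of immediate early UMIs in a cell (x axis, %), 1 line per library. At 1% of UMIs the control line stands at about 91% of cells, the CKO line lower, and both 8-week lines lowest. The cells are not thinned here, and the lines of control and CKO start close together at 0.

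Depth did not remove the difference. At 1000 UMIs per cell, at least 10 immediate early UMIs were found in 10.3% of the control members (8.61% to 12.1%) and in 31.1% of the CKO members (28.6% to 33.7%). A *Fos* UMI was found in 12.6% of thinned control and 38.0% of thinned CKO cells (13.6% and 37.6% before thinning). Among the cells failing the rule, 9 control and 2 CKO cells rich in erythroid markers held no *Fos* UMI. In 3 equal bins of the members by depth, the ratio of summed immediate early CPM was 1.98 in the shallowest, 1.98 in the middle and 2.29 in the deepest cells.

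The same genes were read in other cells of the same libraries. In osteoblast-like cells (at least 5% of UMIs from the osteoblast list; 39 control and 29 CKO cells) they stood at 5215 and 6872 CPM, a ratio of 1.32 (1.17 to 1.49). In pericyte-like cells (18 and 29 cells) the ratio was 1.68 (1.44 to 1.96). In chondrocyte-like cells (60 and 14 cells) the levels were 27856 and 23983 CPM, a ratio of 0.861 (0.814 to 0.910). Over all 315 control and 240 CKO cells failing the rule, the levels were 12395 and 10079 CPM, a ratio of 0.813 (0.784 to 0.843), opposite in direction to the 2.13 of the members. These cells are a mixture of types, whose shares differed between the libraries. The ratios of all 3 classes were smaller than that of the marrow stromal cells. The classes hold few cells, and the difference between classes was not tested.

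Outside the immediate early list 24 genes were higher in CKO. *Cebpb* and *Cebpd*, transcription factors of early fat cell differentiation and the acute phase response, had 102 and 249 CPM in control and 297 and 573 CPM in CKO. Their ratios were 2.92 (2.55 to 3.35) and 2.29 (2.10 to 2.51). *Id2*, an inhibitor of helix-loop-helix factors, had 36.7 and 119 CPM (3.25; 2.60 to 4.09). *Ddit4*, an inhibitor of mTORC1 induced by stress and glucocorticoids, had 22.0 and 82.5 CPM (3.76; 2.83 to 5.05). Both, like *Cdkn1a* below, were under 50 CPM in control and reached the filter through CKO. *Cdkn1a*, which encodes the cell cycle inhibitor p21, had 79 UMIs (28.4 CPM) in control and 240 UMIs (77.6 CPM) in CKO, 2.73 times as much (2.11 to 3.57). The top 1% of members held 49.4% of its UMIs in control and 32.1% in CKO. The 8-week levels of *Cdkn1a* were 150 and 154 CPM, above CKO. In 34 of the 39 genes called higher the *Prx1*-Cre library at 8 weeks also lay above control, and in 26 above CKO. Of the 31 genes called lower it lay below control in 26 and below CKO in 11. Genes called against a control tend to lie on the same side of it in another library. These counts are thus a description only.

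Smaller ratios were found for *Errfi1*, an inhibitor of the EGF receptor (269 and 439 CPM), *Socs2*, an inhibitor of cytokine signaling (103 and 177 CPM), *Saa3*, an acute phase protein (64.8 and 104 CPM), and *Wnt4*, a Wnt ligand (63.7 and 99.6 CPM). *Saa3* was read in 43 control and 73 CKO members, and the top 1% of members held 82.2% and 78.6% of its UMIs. *Gm9780*, *Gm11808*, *Gm12216*, *Rps27rt* and *Rpl10-ps3* were also called higher, but predicted genes and pseudogenes of this kind can share reads with their parent genes and are uncertain. All 83 ribosomal protein genes together stood at 74047 CPM in control and 83354 CPM in CKO, and 79 of 81 compared had a ratio above 1 with none called.

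The members were then split into 3 equal bins by immediate early share, cut at 0.205% and 0.523% on both libraries together. The summed immediate early level was close in the lowest (1090 CPM in control, 1015 CPM in CKO) and middle bins (3307 and 3337 CPM). In the highest bin it still differed, at 13243 and 16363 CPM, so ratios there do not compare cells of like share. The highest bin held 19.2% of control and 45.0% of CKO members, and the lowest 42.4% and 25.9%. Within 0.05 percentage points of the lower cut lay 344 control and 295 CKO cells, and of the upper 96 and 113, so that the bins are ranges and not cell states. *Cebpb* was higher in CKO in every bin, with ratios of 1.87, 1.94 and 2.64 from the lowest to the highest, and *Cebpd* likewise with 1.53, 1.59 and 1.89. *Id2*, which reached the filter through CKO, had ratios of 2.04, 2.36 and 2.28. *Cdkn1a* had ratios of 1.43 (0.653 to 3.08), 3.64 (2.16 to 6.38) and 1.40 (0.995 to 2.02), so only the middle bin had an interval that left out 1. Of the 39 genes called higher, 9 were also called in the lowest bin alone. The bins were set by the immediate early share, so that nothing can be read from the immediate early genes within a bin. Of the 15 called, *Zfp36* and *Fos* had ratios of 2.06 and 1.64 in the lowest bin at mean levels under the filter there (22.0 and 21.4 CPM), and 9 had ratios under 1.

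**Figure D4:**
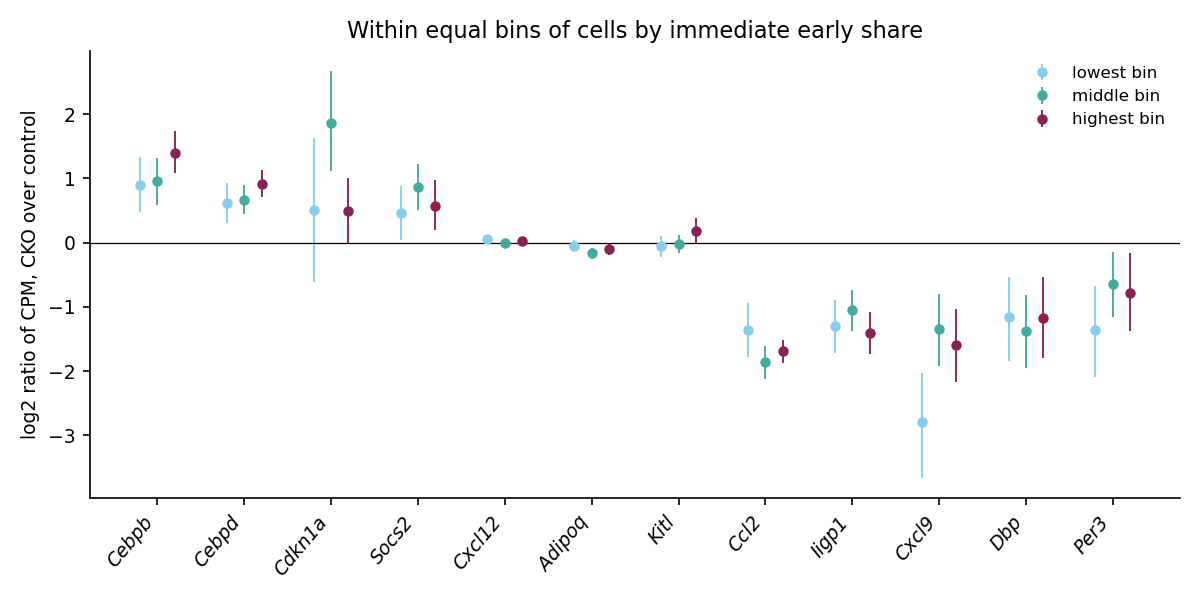
The log2 ratio of CKO to control (y axis) for 12 genes within bins of members by immediate early share, with exact 95% intervals of the ratio. *Cebpb* and *Cebpd* lie above 0 and *Ccl2*, *Iigp1*, *Cxcl9*, *Dbp* and *Per3* below 0 in all 3 bins, while *Cxcl12*, *Adipoq* and *Kitl* lie near 0.

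Among the 31 genes lower in CKO, the 4 hemoglobin genes differed most, but this order rested on few cells. *Hba-a2* fell from 605 to 88.6 CPM, *Hbb-bs* from 1248 to 215 CPM, *Hba-a1* from 1002 to 233 CPM and *Hbb-bt* from 277 to 70.8 CPM. The sort removed Ter119+ red cells, and hemoglobin was also lower in the cells failing the rule, where *Hbb-bs* had 7593 and 960 CPM. Few cells carried most of it, as the 17 control members richest in *Hbb-bs* held 78.4% of its UMIs. Without the members in which erythroid markers reached 1% or osteoblast markers 5% of UMIs, *Hba-a2* had 93.6 and 51.5 CPM (a ratio of 0.550), *Hbb-bs* 254 and 118 CPM (0.467) and *Hbb-bt* 66.1 and 40.3 CPM (0.610), and *Hba-a1* was no longer called (0.674). *Cxcl9* (0.264), *Upk1b* (0.353) and *Dbp* (0.403) then differed more than any of the 4. Each of these was under 50 CPM in CKO and reached the filter through control, so it had to differ. How far red cell RNA enters other values was not tested.

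Interferon response genes were lower as a group in CKO. Of 33 listed, 14 were compared, 3 were called lower and none higher, beside 1.05% of all compared genes, and 12 of the 14 had a ratio below 1, beside 55.4% of all compared genes. Of the 3, *Cxcl9* and *Tap1* were under 50 CPM in CKO and reached the filter through control. All 19 under the filter had a ratio below 1 as well, with an interval that left out 1 for 14 of them. The list's summed level was 2943 CPM in control and 2212 CPM in CKO, a ratio of 0.752 (0.728 to 0.776). *Cxcl9*, a chemokine induced by interferon gamma, fell from 126 to 33.6 CPM, a ratio of 0.266 (0.212 to 0.332). *Iigp1*, an immunity-related GTPase, fell from 256 to 109 CPM (0.425; 0.373 to 0.485), and *Tap1*, the peptide transporter of antigen presentation, from 64.8 to 40.4 CPM. *Ifi27* did not follow, with 406 and 413 CPM. Both 8-week libraries had summed levels above control, 3214 and 3632 CPM.

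*Cxcl9* was unevenly spread. A *Cxcl9* UMI was found in 5.58% of thinned control and 1.90% of thinned CKO members, and the top 1% of members held 53.3% of its UMIs in control and 73.1% in CKO. It was lower in CKO in every bin by immediate early share, with ratios of 0.144, 0.394 and 0.330. *Iigp1* was lower as well, with ratios of 0.408, 0.482 and 0.377. In the cells failing the rule *Cxcl9* had 2 UMIs in control and 0 in CKO, too few to compare. The interferon list as a whole ran the other way in those cells, with 597 CPM in control and 868 CPM in CKO, a ratio of 1.45 (1.27 to 1.67), and *Iigp1* had 2 and 6 UMIs there. Antigen presentation genes as a list were close between genotypes, with 18780 and 17596 CPM summed. None of the 8 compared was called, beside 1.33% of all compared genes called higher and 1.05% lower, so that count adds little.

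Of 12 cytokine and acute phase genes compared, 2 were called lower and 1 (*Saa3*) higher, beside 1.05% and 1.33% of all compared genes. *Ccl2*, which draws monocytes, had 547 CPM in control and 234 CPM in CKO (0.428; 0.391 to 0.468), and its 8-week levels of 643 and 146 CPM spanned that range. *Ccl7*, a related chemokine, had 63.4 and 40.1 CPM and reached the filter through control. Few cells carried much of both, as the top 1% of members held 54.6% of the *Ccl2* UMIs in control and 51.6% in CKO, and 41.5% and 58.1% of those of *Ccl7*. *Ccl2* was lower in CKO in all 3 bins (0.391, 0.275 and 0.309). The most abundant of the list, *Cxcl14*, had 3301 and 3690 CPM.

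*Dbp* and *Per3*, genes of the circadian clock, were lower in CKO. *Dbp*, a transcription factor driven directly by the clock, had 91.4 CPM in control and 36.2 CPM in CKO (0.396; 0.314 to 0.497), and *Per3* had 84.9 and 44.6 CPM (0.526; 0.423 to 0.651). These were the only 2 of 18 clock genes that passed the filter, and both passed it through control, where they were high, so nothing is read from both being called. The other 16 did not share a direction. A ratio below 1 was found for 9, with an interval that left out 1 for 5, and a ratio above 1 for 6, with such an interval for 1. The most abundant of them, *Clock*, had 42.5 and 41.4 CPM (0.975; 0.753 to 1.26). *Nr1d1*, which encodes a repressor of the clock, had 54.7 and 26.2 CPM, *Nr1d2*, its relative, 34.9 and 17.5 CPM, and *Arntl*, the partner of *Clock*, 11.5 and 13.6 CPM. *Nfil3*, which competes with *Dbp* for DNA, had 19.4 and 29.8 CPM (1.53; 1.08 to 2.18). *Dbp* was lower still at 8 weeks (18.3 and 17.5 CPM). The hour of collection is not given in the sources used here, and its part was not tested.

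*Upk1b*, a uroplakin, had 83.9 and 29.8 CPM (0.355; 0.276 to 0.454), and *Pttg1*, securin, 89.3 and 48.2 CPM. Both were under 50 CPM in CKO and reached the filter through control. *Bglap*, the osteoblast hormone osteocalcin, had 128 and 59.2 CPM, but without the members rich in erythroid or osteoblast markers the levels were 68.3 and 60.0 CPM, and it was no longer called. *Col1a1*, collagen I, had 196 and 108 CPM, and it was still called without those members (179.5 and 106.5 CPM, a ratio of 0.594). The top 1% of members held 35.2% of its UMIs in control and 19.2% in CKO. In the cells failing the rule it had 10603 UMIs in control and 4577 in CKO. How far their RNA enters the level in members was not tested. *Angptl4*, an inhibitor of lipoprotein lipase, had 339 and 200 CPM and *Igfbp3*, a binding protein of insulin-like growth factors, 573 and 364 CPM. Both were lower in CKO in all 3 bins.

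Most of the compared niche factors had ratios below 1. Of 15 compared niche factor genes none was called, beside 1.33% of all compared genes called higher and 1.05% called lower. With shares this low, the absence of calls says little about the list. *Cxcl12* made up 74.0% of the list's level and is a marker of the rule, so the list is given without it. Then 11 of 14 genes had a ratio below 1, beside 55.4% of all compared genes, with a median log2 ratio of -0.20 beside -0.03 over all compared genes, and the summed ratio was 0.890 (0.875 to 0.905), compared with 0.963 with *Cxcl12*. *Kitl* had 736 and 699 CPM, *Gas6* 3507 and 3149 CPM and *Vcam1* 1838 and 1672 CPM. The lowest ratio was that of *Bmp6* (248 and 168 CPM; 0.677) and the highest that of *Igf1* (180 and 251 CPM; 1.40). *Bmp4* had 604 and 430 CPM and *Csf1* 545 and 464 CPM.

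Of 17 compared transcription factors and receptors of the stromal identity none was called. This stands beside 1.33% of all compared genes called higher and 1.05% called lower, and so says little about the list. Without the rule marker *Lepr* 12 of 16 had a ratio below 1, beside the same 55.4%, and the summed ratio was 0.907 (0.885 to 0.931). *Ebf1* had 1110 and 1006 CPM, *Ebf3* 391 and 396 CPM and *Foxc1* 349 and 327 CPM. *Snai2* was lowest in ratio, at 221 and 160 CPM. The fat lineage list holds the rule markers *Adipoq* and *Lpl*. Of its 8 other compared genes *Cebpb* and *Cebpd* were called higher, beside 1.33% of all compared genes. A ratio below 1 was found for 5 of the 8, beside the same 55.4%. Of 22 under the filter, 13 had a ratio below 1, with an interval that left out 1 for 3. A ratio above 1 was found for 6 of them, none with such an interval. The summed ratio of the list without the markers was 0.987 (0.972 to 1.00). *Apoe*, which carries lipids, made up 78.9% of that sum and had 9593 and 9108 CPM, and *Pparg*, the master regulator of fat cells, had 64.4 and 32.7 CPM, a mean under the filter. Of 11 bone lineage genes *Col1a1* alone was called lower, beside 1.05% of all compared genes. *Ibsp* (bone sialoprotein) had 8268 and 7768 CPM and *Spp1* (osteopontin) 6793 and 5945 CPM.

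The lists tied to *Zmpste24* and to stress follow. The counts stand beside 1.33% of all compared genes called higher and 1.05% called lower. The p53 target (25%), hypoxia and glycolysis (11.1%) and glucocorticoid response (11.1%) lists lay above the share called higher, each through 1 gene. Of 20 nuclear envelope genes 5 were compared and none called, with *Lmna*, the gene of the *Zmpste24* substrate, at 97.9 and 95.7 CPM. Of 4 compared p53 targets *Cdkn1a* alone was called, and it reached the filter through CKO, with *Bax* at 187 and 175 CPM and *Phlda3* at 163 and 119 CPM. Of 23 p53 targets under the filter, 12 had a ratio below 1, with an interval that left out 1 for 3. A ratio above 1 was found for 8 of them, none with such an interval. None of 16 unfolded protein response and 7 heat shock genes was called. Of 8 heat shock genes under the filter 7 had a ratio above 1, and 2 of these, both inducible HSP70 chaperones, had intervals that left out 1. *Hspa1a* had 43 UMIs (15.5 CPM) in control and 164 UMIs (53.1 CPM) in CKO (3.43; 2.44 to 4.91), and *Hspa1b* 8 and 37 UMIs (4.16; 1.91 to 10.3). Of 15 mechanosensing genes none was called, and the summed ratio of 1.27 came mainly from *Actb* (4159 and 5939 CPM; 1.43), the most abundant. Of 9 hypoxia and glycolysis genes *Ddit4* alone was called, which also reached the filter through CKO, and of 9 glucocorticoid response genes *Errfi1* was called higher and *Angptl4* lower. Of 33 matrix genes *Igfbp3* alone was called, and lower.

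**Figure D5:**
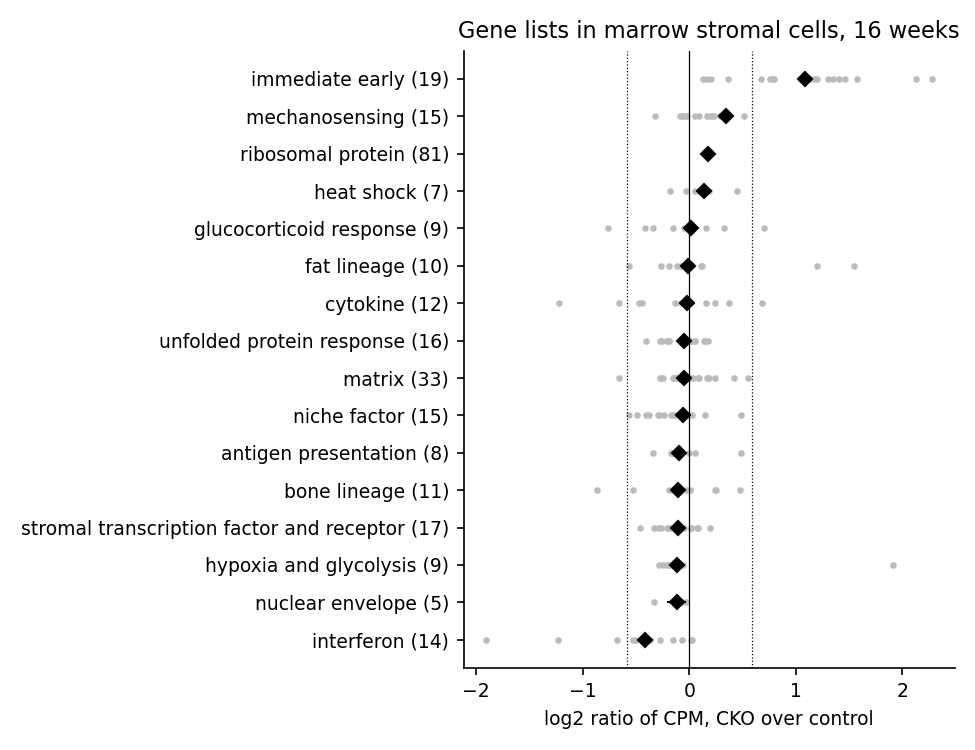
Summed log2 ratio of CKO to control (diamonds, with exact 95% intervals) for gene lists with at least 5 compared genes, given in parentheses, and the compared genes as gray points (none drawn for ribosomal protein). Dotted lines mark 1.5-fold; only the immediate early list lies beyond it, and the interferon list is the lowest. The niche list (with *Cxcl12*), the stromal factor list (with *Lepr*) and the fat list (with *Adipoq* and *Lpl*) are drawn with their rule markers.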

How the data were processed

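Ai9+ cells of bone and marrow were profiled with 10x Genomics 3′ chemistry. The authors deposited raw UMI counts of each cell, made with Cell Ranger on mm10 (version 3.1.0 in the matrix header). The other 24 libraries of the series were not used here. Members were summed per library and scaled to CPM. Ratios have exact conditional binomial intervals, levels exact Poisson intervals and shares Clopper-Pearson intervals, all at 95%. A gene was compared at a mean of 50 CPM and called at 1.5-fold. The calculation of ratios and intervals was tested on simulated Poisson counts (Python, numpy, scipy). Such counts follow the model behind the intervals, so the test does not cover spread between cells or mice. Doublets were kept and no caller was run. The members, lists and tests were chosen with earlier results of these data known. Named genes were the 12 largest ratios in each direction (without rule markers, mitochondrial and sex-linked genes), *Zmpste24*, the rule markers, and per list the 3 most abundant and the highest and lowest in ratio. All other genes named were chosen after their values were seen. Of the promoter motifs, 5 were counted first and TGACG was added after those counts and the sequences were seen. For duplicated symbols (*Ccl19*, *Aldoa*) only the first entry was read.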

Additional observations from a re-analysis of the deposited data

Results flagged for a closer look

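The immediate early list moved in opposite directions in 2 kinds of cell of the same libraries: CKO lay above control in the marrow stromal cells (ratio 2.13) and below it in the chondrocyte-like cells (ratio 0.861, from 60 control and 14 CKO cells). The difference was not tested.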

How the results depend on the processing

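No paired analysis was possible because each genotype is 1 library. The share of members moved with the rule. At a marker share of 2% it was 82.5% in control and 87.5% in CKO, at 0.5% it was 91.8% in CKO, and with 6 markers (no *Cxcl12*) 74.8% and 77.6%. The counts of 39 genes higher and 31 lower became 82 and 143 at a mean of 20 CPM, 2290 and 2507 without a filter, and 16 and 10 at a ratio of 2. In the lowest of 3 equal bins by immediate early share 58 genes were higher and 100 lower, and after thinning to 1000 UMIs 61 were lower. The immediate early ratio was 2.06 at a marker share of 0.5%, 2.18 with 6 markers, 2.23 scaled by the median ratio and 2.01 as a mean over cells. Of the lists with at least 5 compared genes, none was past 1.5-fold in the lowest bin (0 compared with 1 in all members), where by construction the immediate early list cannot differ much. Of the 39 genes called higher, 11 turned to ratios under 1 there, 9 of them immediate early genes. They were *Fosb* (0.579), *Btg2* (0.613), *Ier2* (0.827), *Junb* (0.836), *Jund* (0.945), *Klf2* (0.726), *Gadd45g* (0.747), *Klf6* (0.798) and *Egr1* (0.919), and outside that list *Slc38a2* (0.810) and *Phlda1* (0.891). The chondrocyte list turned to 0.694 at a marker share of 0.5% and 0.849 in cells under 5% mitochondrial UMIs, the lymphoid list to 0 in the lowest bin, and the megakaryocyte list to 1.07 with 6 markers and 1.14 after thinning. For hemoglobin genes the erythroid ratio of 0.195 became 0.582 at a marker share of 2% and 0.567 without mixed cells. Without the barcodes shared by both libraries, an alternative chosen after seeing the data, 38 genes were higher and 29 lower. Leaving rule markers out of the lists that hold them was also chosen after seeing the data, and moved the niche factor ratio most, from 0.963 to 0.890. The causes were not tested. Of 1045 values for 95 named genes over the alternatives, 910 stayed within the interval of the main ratio. Shallow cells, 1 library per genotype and pooled mice limit what these counts can show.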
